A study of Mus musculus with 12 samples.

Results

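Mast cell genes were followed in mouse pancreatic islets before and after their transplantation into inguinal white fat, which lies beneath the skin of the groin. The genes were 8 symbols chosen by name, Mcpt4, Cma1, Tpsb2, Cpa3, Fcer1a, Ms4a2, Hdc and Kit, out of 23234 symbols in the deposited table. All 8 were present as single rows. Their values were set apart from those of the neutrophil genes S100a8 and S100a9. There were 12 RNA-seq libraries, 4 each of isolated islets, of grafts at day 60 after transplantation and of grafts at day 120. All 12 carry the strain label C57BL/6, and no genetic change or drug is named for any group. Whether that strain label describes donor, recipient or both, and the age and sex of the mice, are not given in the sources used here. Libraries carry replicate numbers, but separate animals or preparations are not stated, so p-values measure only the spread between libraries, which may be technical. Values are FPKM, fragment counts normalised to transcript length and to each library's mapped fragments.

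Mast cells are tissue-resident immune cells that arise from bone marrow progenitors and mature in connective tissue and mucosa, fat included. They store proteases, histamine and heparin in granules and release them when IgE bound to the high-affinity receptor FcεRI is cross-linked by antigen. Mouse mast cells of connective tissue are known for the chymases Mcpt4 and Cma1, the tryptase Tpsb2 and carboxypeptidase Cpa3, whereas mucosal mast cells are known for the chymases Mcpt1 and Mcpt2. Fcer1a and Ms4a2 encode the alpha and beta chains of FcεRI, Hdc makes histamine from histidine, and Kit is the receptor for stem cell factor, on which mast cells depend. Hdc and Kit are also used by other cells: Hdc by neutrophils and basophils, Kit by melanocytes, interstitial cells of Cajal and blood progenitors.

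The promoters shown are those of 4 mast cell genes near 0 in isolated islets and present in every graft. The sequences are RefSeq's for GRCm38.p6, from 250 bases before to 50 bases after the annotated start, read 5′ to 3′ on the gene's strand, and all 4 lie on the minus strand. That of Mcpt4 is chr14:56062261-56062560, that of Cma1 chr14:55944626-55944925, that of Cpa3 chr3:20242132-20242431 and that of Fcer1a chr1:173227180-173227479. Capitals mark the letters searched, on both strands: AGATAA or AGATAG or TGATAA or TGATAG for the GATA factor motif, and CACGTG or CATGTG for an E-box motif. No match of one motif overlapped a match of the other.
Mcpt4: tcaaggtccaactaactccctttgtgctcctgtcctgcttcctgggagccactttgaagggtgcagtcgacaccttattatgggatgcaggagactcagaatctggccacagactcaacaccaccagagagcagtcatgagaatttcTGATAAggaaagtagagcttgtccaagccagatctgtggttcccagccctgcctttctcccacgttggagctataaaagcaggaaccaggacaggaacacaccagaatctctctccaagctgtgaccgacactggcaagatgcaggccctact
Cma1: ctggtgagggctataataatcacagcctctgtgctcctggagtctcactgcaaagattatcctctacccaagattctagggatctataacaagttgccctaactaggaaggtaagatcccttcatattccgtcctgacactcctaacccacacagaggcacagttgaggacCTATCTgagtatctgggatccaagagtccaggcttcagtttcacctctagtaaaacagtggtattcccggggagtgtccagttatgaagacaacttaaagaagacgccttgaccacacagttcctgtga
Cpa3: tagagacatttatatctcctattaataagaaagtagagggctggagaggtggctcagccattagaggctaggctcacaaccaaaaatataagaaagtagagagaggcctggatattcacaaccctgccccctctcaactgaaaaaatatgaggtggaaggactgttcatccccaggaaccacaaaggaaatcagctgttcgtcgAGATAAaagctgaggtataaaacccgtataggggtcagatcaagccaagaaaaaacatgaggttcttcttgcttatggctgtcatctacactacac
Fcer1a: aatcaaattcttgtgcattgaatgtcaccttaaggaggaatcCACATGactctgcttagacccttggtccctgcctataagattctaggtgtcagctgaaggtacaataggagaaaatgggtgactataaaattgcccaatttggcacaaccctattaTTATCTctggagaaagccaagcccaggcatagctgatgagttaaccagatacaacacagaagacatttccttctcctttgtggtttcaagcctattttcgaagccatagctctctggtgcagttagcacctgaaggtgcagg
A GATA motif was found once in each of the 4 promoters. Its first base stood at position -103 in Mcpt4, -79 in Cma1, -46 in Cpa3 and -92 in Fcer1a, counted with no position 0 from the start. Fcer1a also held an E-box at -208. Among the other genes, the Ms4a2 promoter held 3 GATA motifs, those of Hdc and S100a9 held 1 each, and that of S100a8 and the first of 2 entries for Kit held none. The S100a8 promoter held an E-box at -130. Of all 32544 promoters of this length in the table, 29.6% held at least 1 GATA motif and 20.5% held the E-box. Of the 8 mast cell genes, 7 had a promoter entry, Tpsb2 being the exception.

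In a principal component analysis of all tested genes, day 60 replicate 1 scored 89.0 on the second component and the other grafts 4.61 or less. Isolated islet replicate 1 lay nearest the grafts on the first, at -46.0 against -86.1 or lower in the other isolated islets. Results that turn on either are given with and without it.

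The 4 granule protease genes went together: each was at or near 0 in isolated islets and was detected in all 8 grafts at both times. Mcpt4, a chymase, was listed at 0 in all 4 isolated islet libraries. It stood at 41.6, 13.3, 20.9 and 3.23 FPKM in day 60 grafts and at 11.2, 10.2, 6.17 and 6.73 FPKM in day 120 grafts. The lowest graft was therefore day 60 replicate 4 and the highest day 60 replicate 1. Cma1, the chymase also called mast cell protease 5, was listed at 0.093 FPKM in isolated islet replicate 1 and at 0 in the others. It stood at 36.4, 11.6, 15.6 and 2.30 FPKM in day 60 grafts and at 5.90, 8.39, 5.90 and 2.72 FPKM in day 120 grafts. The same pair of day 60 grafts, replicates 4 and 1, marked the lowest and the highest value. Tpsb2, a beta tryptase, was listed at 0.086 FPKM in isolated islet replicate 2 and at 0 in the others. It stood at 45.5, 8.76, 19.4 and 3.10 FPKM in day 60 grafts and at 9.42, 11.7, 7.16 and 6.29 FPKM in day 120 grafts. Again day 60 replicate 4 was lowest among the grafts and day 60 replicate 1 highest. Cpa3, which trims peptides from their carboxyl end, was listed at 0.117 FPKM in isolated islet replicate 4 and at 0 in the others. It stood at 41.0, 8.06, 9.73 and 2.89 FPKM in day 60 grafts and at 5.39, 7.42, 2.85 and 2.41 FPKM in day 120 grafts. Here the lowest graft was day 120 replicate 4. No graft value of these 4 genes overlapped an isolated islet value, while the day 60 and day 120 ranges overlapped for each of them.

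The spread among grafts was wider at day 60. The highest over the lowest day 60 library was 12.9 for Mcpt4, 15.9 for Cma1, 14.7 for Tpsb2 and 14.2 for Cpa3. At day 120 the same ratios were 1.82, 3.09, 1.86 and 3.08. Among day 60 grafts, replicate 1 was highest and replicate 4 lowest for all 4 genes. With replicate 1, Mcpt4 averaged 19.8 ± 16.3 FPKM at day 60 (SD, n = 4), and without it 12.5 ± 8.88 FPKM (SD, n = 3). Cpa3 averaged 15.4 ± 17.3 FPKM with it and 6.90 ± 3.57 FPKM without it. In day 120 grafts, Mcpt4 averaged 8.57 ± 2.50, Tpsb2 8.64 ± 2.42, Cma1 5.73 ± 2.32 and Cpa3 4.52 ± 2.34 FPKM (SD, n = 4 each).

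**Figure D1:**
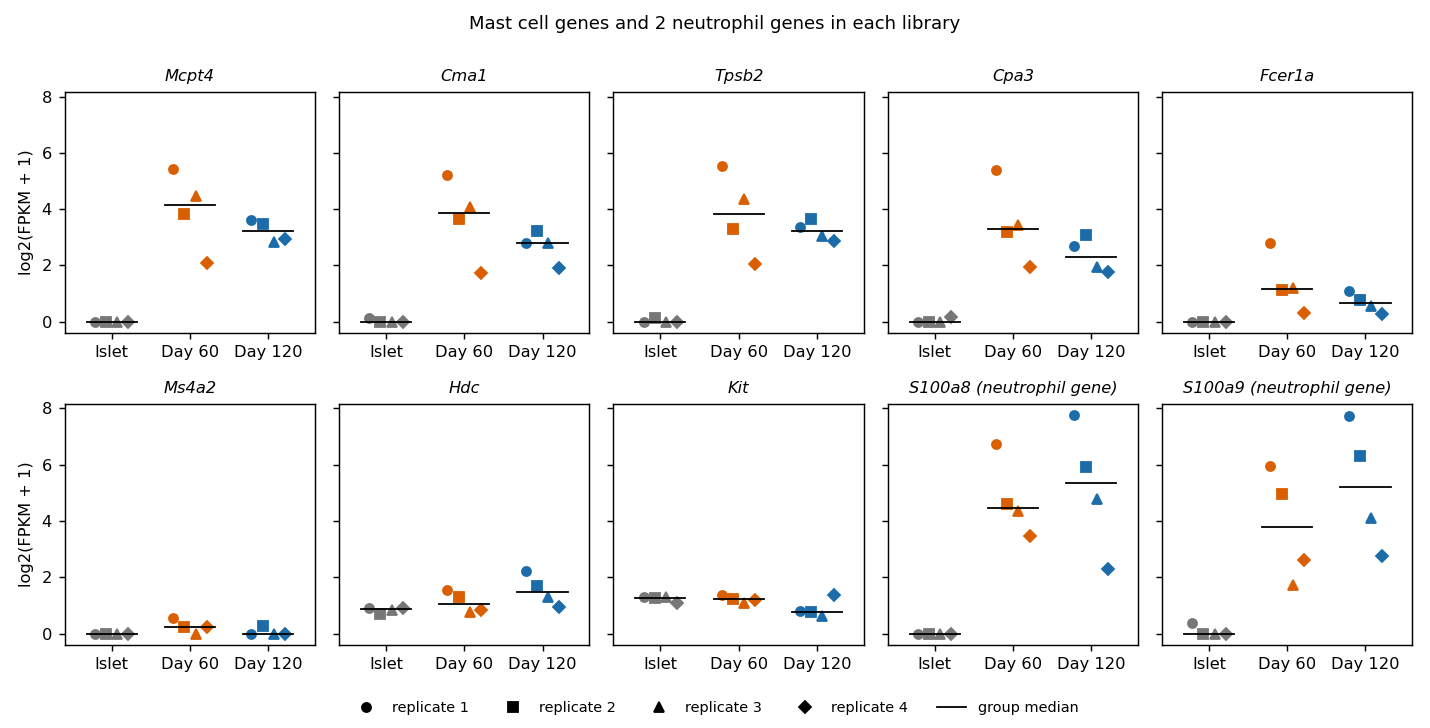
Level of each gene in each library, as log2(FPKM + 1), for isolated islets, day 60 grafts and day 120 grafts. Symbols mark replicate numbers and lines mark group medians; the 4 proteases lie near 0 in isolated islets and apart from 0 in all 8 grafts, whereas Hdc and Kit are present in all 12 libraries.

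The receptor genes were far lower than the proteases. Fcer1a, the IgE-binding chain of FcεRI, was listed at 0 in all isolated islet libraries. It stood at 6.01, 1.19, 1.31 and 0.244 FPKM in day 60 grafts and at 1.14, 0.692, 0.481 and 0.222 FPKM in day 120 grafts. It was above 0 in all 8 grafts, but only day 60 replicate 1 exceeded 2 FPKM. Ms4a2, the beta chain that amplifies the receptor's signal, was listed at 0 in all isolated islet libraries. It stood at 0.471, 0.187, 0 and 0.166 FPKM in day 60 grafts and at 0, 0.202, 0 and 0 FPKM in day 120 grafts. It overlapped the isolated islets at both times and failed the filter of at least 1 FPKM in at least 4 libraries. The graft values of both genes were whole multiples of 1 step, within 0.05, after scaling by the relative worth of 1 read. The multiples were 78, 13, 13 and 3 at day 60 and 10, 7, 4 and 2 at day 120 for Fcer1a. For Ms4a2 they were 3, 1, 0 and 1 at day 60 and 0, 1, 0 and 0 at day 120. The step may itself stand for several reads, so these are relative counts, and single steps decide whether Ms4a2 is listed at all.

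Hdc and Kit behaved differently from the other 6 genes, since both were present in isolated islets. Hdc stood at 0.863, 0.632, 0.793 and 0.873 FPKM in isolated islets, at 1.89, 1.45, 0.685 and 0.769 FPKM in day 60 grafts and at 3.70, 2.21, 1.46 and 0.923 FPKM in day 120 grafts. Of its day 60 values, those of replicates 1 and 2 lay above the islet range and those of replicates 3 and 4 within it. Its 4 day 120 values lay above every isolated islet value, replicate 4 by a narrow margin, but overlapped the day 60 values. Kit stood at 1.45, 1.38, 1.48 and 1.12 FPKM in isolated islets, at 1.61, 1.35, 1.13 and 1.31 FPKM in day 60 grafts and at 0.735, 0.688, 0.538 and 1.56 FPKM in day 120 grafts. Day 120 replicates 1 to 3 lay below every isolated islet library and replicate 4 above every one. Fewer cells of a type and less RNA per cell cannot be told apart in such bulk libraries.

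Day 60 grafts were compared with isolated islets by limma on log2(FPKM + 1), a scale on which changes of low genes are understated. Of the 7 mast cell genes that passed the filter, 5 were higher at day 60 at an adjusted p under 0.05, and none was lower. Among all 13433 tested genes 43.7% were called, 31.3% higher and 12.3% lower. The 5 genes and Hdc were under 1 FPKM in every isolated islet library and passed the filter only through the grafts. That favours a higher call without ensuring it, since Hdc was not called. Of the 895 tested genes under 1 FPKM in every isolated islet library, 80.6% were called higher, so the count says little about mast cell genes in particular. Mcpt4 was higher by 3.95 ± 0.515 (log2 difference ± SE, adjusted p = 0.000316). Tpsb2 was higher by 3.77 ± 0.543 (adjusted p = 0.000554), Cma1 by 3.63 ± 0.552 (0.000721) and Cpa3 by 3.45 ± 0.548 (0.000888). The differences of these 4 proteases lay within 1 SE of one another. Fcer1a was higher by 1.37 ± 0.395 (adjusted p = 0.0151). All 5 remained past the threshold without day 60 replicate 1, with Mcpt4 at 3.46 (adjusted p = 0.000140) and Fcer1a at 0.88 (0.00975). Hdc differed by 0.26 with a 95% interval of -0.31 to 0.83 (adjusted p = 0.438). Kit differed by -0.0065 with an interval of -0.40 to 0.38 (adjusted p = 0.981). The median difference was 3.45 over the 7 genes and 0.27 over all tested genes. All of the 7 but Kit passed the filter only through the grafts, so this gap was largely fixed in advance. Ms4a2, fitted without the filter, differed by 0.26 (adjusted p = 0.0625 over all genes). Of all 8 genes, 5 did not overlap with isolated islets and were higher, against 22.0% of all tested genes and 75.9% of those low in isolated islets.

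Day 120 grafts were compared with the same isolated islets, so the 2 comparisons are not independent. Of the 7 tested genes, 4 were higher and none lower, while 31.4% of all tested genes were called, 24.3% higher and 7.03% lower. Of the 895 genes low in isolated islets, 48.4% were called higher. Mcpt4 was higher by 3.22 ± 0.515 (adjusted p = 0.00213) and Tpsb2 by 3.21 ± 0.543 (0.00287). Cma1 was higher by 2.64 ± 0.552 (adjusted p = 0.00656) and Cpa3 by 2.33 ± 0.548 (0.0105). Fcer1a differed by 0.68, with an interval of -0.18 to 1.53 (adjusted p = 0.198). The 4 day 120 values of Fcer1a were all above the isolated islets, and with day 120 and isolated islet libraries alone the same difference passed (adjusted p = 0.0126), as did that of Hdc (adjusted p = 0.0400). Hdc differed by 0.70, with an interval of 0.13 to 1.27 (adjusted p = 0.0593), and Kit by -0.35, with an interval of -0.74 to 0.036 (adjusted p = 0.145). Both calls changed without day 120 replicate 4: Hdc was higher by 0.90 (adjusted p = 0.0347) and Kit lower, at -0.51 (adjusted p = 0.0464). Hdc differed by 0.47 (adjusted p = 0.159) without day 120 replicate 1 and by 0.32 (adjusted p = 0.374) with quantile normalization. The median difference was 2.33 over the 7 genes and 0.30 over all tested genes. Most of the 7 passed the filter only through the grafts, so this gap too was largely fixed in advance. Of all 8 genes, 6 were higher with no overlap with isolated islets, those called plus Fcer1a and Hdc, against 28.3% of all tested genes and 76.3% of those low in isolated islets. Scaling every library to 10 endocrine genes left 1 mast cell gene called at day 120, Mcpt4. It gave Tpsb2 at 3.00 (adjusted p = 0.0552), Cma1 at 2.44 (0.110) and Cpa3 at 2.15 (0.155), and under it the number of all genes called was 335 in place of 4212.

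No mast cell gene was called between day 120 and day 60 grafts by limma, nor did any gene's groups separate. For calls this was near the background, since 0.0149% of all tested genes were called, 0.00744% higher and 0.00744% lower. With no overlap, 2.91% of all tested genes were higher, and the share that was lower was not computed. Those called were 2 genes, and 1356 genes reached an unadjusted p under 0.05. No mast cell gene was among the 1356, the smallest unadjusted p being 0.0619 for Cpa3. That fit leaves out the likeness of same-numbered grafts. With replicate number as a block on the grafts alone, unadjusted limma p was 0.0342 for Hdc, 0.0458 for Fcer1a and 0.0475 for Cpa3. None of these passed adjustment (adjusted p = 0.366 each). Cpa3 differed by -1.12, with an interval of -2.31 to 0.065 (adjusted p = 0.493). Cma1 differed by -0.99 (adjusted p = 0.518), Mcpt4 by -0.73 (0.579), Fcer1a by -0.69 (0.518) and Tpsb2 by -0.57 (0.679). All 5 estimates were below 0, but their size depended on day 60 replicates 1 and 4, the highest and lowest day 60 grafts. Without day 60 replicate 1, Cpa3 differed by -0.49, Cma1 by -0.47, Mcpt4 by -0.24, Fcer1a by -0.21 and Tpsb2 by 0.012. Without day 60 replicate 4, Cma1 differed by -1.64 (adjusted p = 0.0916), Cpa3 by -1.63 (0.112), Mcpt4 by -1.35 (0.0973), Tpsb2 by -1.16 (0.149) and Fcer1a by -1.04 (0.143). These 5 reached an unadjusted p under 0.05 without that library but did not pass the adjustment. Hdc differed by 0.44 (adjusted p = 0.522) and Kit by -0.35 (adjusted p = 0.506). The interval of Mcpt4 ran from -1.84 to 0.39, so a lower level at day 120 was neither shown nor bounded tightly.

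**Figure D2:**
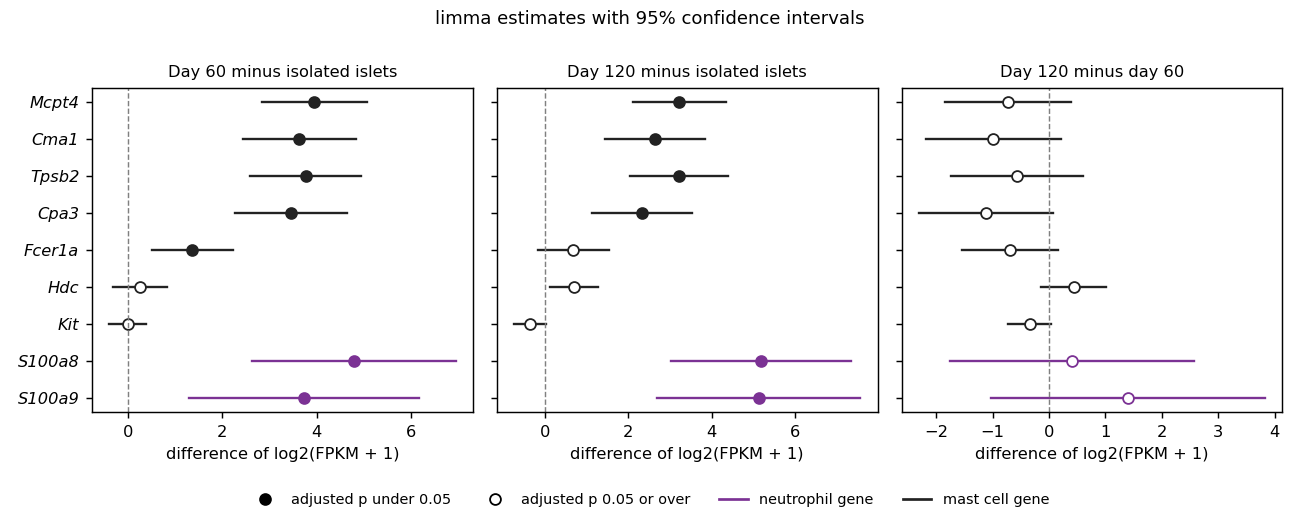
limma differences on the log2(FPKM + 1) scale with 95% confidence intervals, for day 60 minus isolated islets, day 120 minus isolated islets and day 120 minus day 60. Filled points have an adjusted p under 0.05; the 4 proteases are filled at both times against isolated islets, Fcer1a at day 60, and no point is filled between the graft times.

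The 4 proteases kept similar proportions to one another across grafts, and the neutrophil genes varied more widely against them. The FPKM of Tpsb2 was 0.659 to 1.16 times that of Mcpt4 in the 8 grafts, a 1.76-fold range. The ratio to Mcpt4 ran from 0.404 to 0.957 for Cma1, a 2.37-fold range, and from 0.358 to 0.985 for Cpa3, a 2.75-fold range. Fcer1a was 0.0330 to 0.144 times Mcpt4, a 4.38-fold range. These ranges are narrower than the 12.9-fold range of Mcpt4 itself. The ratio to Mcpt4 varied 10.1-fold for Hdc and 10.5-fold for Kit. A range like that of Fcer1a was not particular to mast cell genes. Mcpt4 over the macrophage gene Lyz2 ranged 4.32-fold and over the fibroblast gene Dcn 4.12-fold. Mcpt4 and Cma1 lie in 1 family of chymase genes, and Tpsb2 has the near copy Tpsab1. How reads shared by such copies were assigned is not given in the sources used here, so their individual levels carry that uncertainty.

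S100a8 and S100a9 encode the subunits of calprotectin, abundant in neutrophils. S100a8 was listed at 0 in all isolated islet libraries. It stood at 106, 23.2, 19.3 and 9.94 FPKM in day 60 grafts and at 219, 59.6, 26.3 and 3.88 FPKM in day 120 grafts. S100a9 was listed at 0.287 FPKM in isolated islet replicate 1 and at 0 in the others. It stood at 61.5, 29.9, 2.33 and 5.18 FPKM in day 60 grafts and at 210, 78.1, 16.0 and 5.78 FPKM in day 120 grafts. Both were highest in day 120 replicate 1, a graft whose Mcpt4, at 11.2 FPKM, was close to that of day 120 replicate 2. The ratio to Mcpt4 ran from 0.576 to 19.6 for S100a8, a 33.9-fold range. For S100a9 it ran from 0.111 to 18.7, a 169-fold range, and was lowest in day 60 replicate 3. The ratio of S100a8 to S100a9 itself ran from 0.671 to 8.30, a 12.4-fold range, and was highest in that same graft. In limma both were higher at day 60 and at day 120, by 4.78 and 5.19 for S100a8 (adjusted p = 0.00370 and 0.00544) and by 3.73 and 5.13 for S100a9 (0.0198 and 0.00895). The S100a9 call at day 60 was lost without day 60 replicate 1, at 3.01 (adjusted p = 0.0632).

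**Figure D3:**
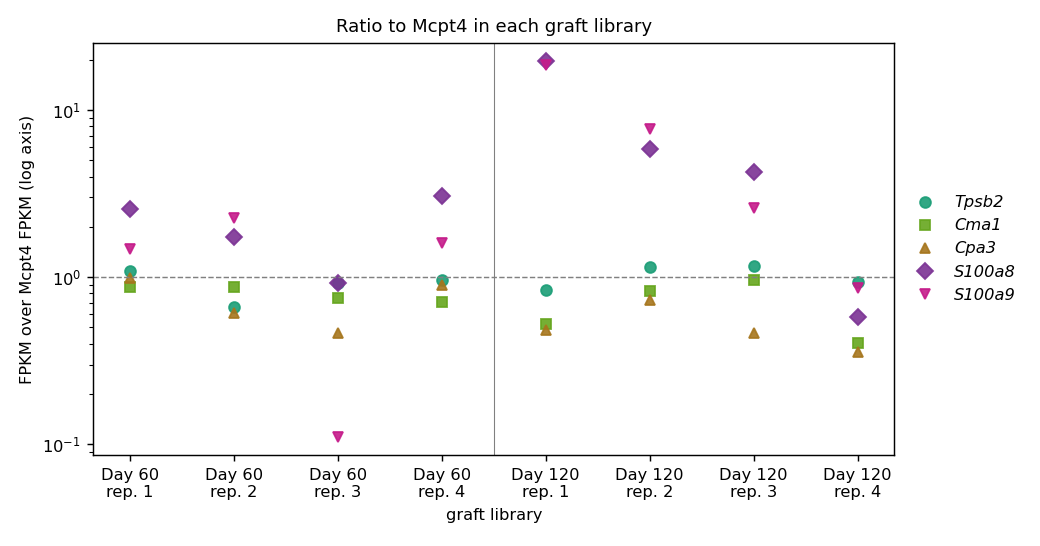
FPKM of Tpsb2, Cma1, Cpa3, S100a8 and S100a9 divided by that of Mcpt4 in each of the 8 grafts, on a log axis. The 3 protease ratios lie between 0.358 and 1.16, while those of S100a8 and S100a9 lie between 0.111 and 19.6, highest in day 120 replicate 1.

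Whether a mast cell gene differed from a neutrophil gene in its change was tested on the within-library difference of log2(FPKM + 1), with an exact permutation test, two-sided, over 4 against 4 libraries. The 70 assignments allow a smallest p of 0.0286, and 48 such tests were made. None passed Benjamini-Hochberg adjustment, the smallest adjusted p by this exact permutation test being 0.0623. With 48 tests, a test can pass only if many reach the smallest p together. The failure therefore does not show that the genes changed alike. At day 60 against isolated islets, 6 of 8 genes reached the smallest unadjusted p beside S100a8 and 4 of 8 beside S100a9. At day 120 against isolated islets, 6 of 8 did so beside each. All of these had the smaller change in the mast cell gene. For genes at 0 in isolated islets the change is the graft level itself, so a low gene such as Fcer1a or Ms4a2 had to have the smaller change, and these counts are a description. The 4 proteases were within 0.28 of S100a9 at day 60 on the log2 scale, from -0.28 for Cpa3 to 0.22 for Mcpt4. At day 120 they were below it by between -1.91 for Mcpt4 and -2.80 for Cpa3. Between day 120 and day 60, no gene reached an unadjusted p under 0.05 beside either. The largest gap there was Cpa3 against S100a9, at -2.52 (exact permutation p = 0.0571, adjusted p = 0.119). This permutation ignores the likeness of same-numbered grafts, whose pairing the labels do not state. S100a9 was higher at day 120 than at day 60 in all 4 same-numbered pairs, and Cpa3 minus S100a9 was lower in all 4. With the pairs as a block in limma, S100a9 differed by 1.40 (adjusted p = 0.366) and Cpa3 by -1.12 (adjusted p = 0.366).

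The genes with profiles nearest to each mast cell gene were found among 13432 other tested genes, by the mean absolute difference of centred log2(FPKM + 1) over the 12 libraries. Nearest to Mcpt4 were Tpsb2 at 0.14 and Cma1 at 0.26, followed by Lsp1, a leukocyte cytoskeletal protein, at 0.26. For Tpsb2 they were Mcpt4, Cma1 and F13a1, a coagulation factor subunit made by macrophages, at 0.30. For Cma1 all 3 were proteases of the list, Cpa3 at 0.24, Tpsb2 at 0.26 and Mcpt4. For Cpa3 they were Ccr2, a chemokine receptor of monocytes, at 0.21, then Cma1 and Plac9 at 0.26. S100a8 ranked 864 and S100a9 ranked 949 by nearness to Mcpt4, against 20 for Cpa3 and 1077 for Fcer1a. The measure compares sizes of change as well as direction, so the low Fcer1a ranked far from the proteases. The nearest genes to Fcer1a were Rpl22, Rps7 and Gm15772. Hdc was nearest to Hist1h3e, the neutrophil chemokine receptor Cxcr2 at 0.21, and Polr1e. Kit was nearest to Ypel5, Naprt1 and Srgap3.

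Other genes known from mast cells were mostly low. Of 25 further genes, 8 passed the filter, of which 4 were higher at day 60 and 3 at day 120, with none lower, while 31.3% and 24.3% of all tested genes were called higher. Ltc4s and Enpp3 were under 1 FPKM in every isolated islet library. Of all tested genes low in this way, 80.6% were called higher at day 60 and 48.4% at day 120. The median difference of the 8 was 0.80 at day 60 and 0.54 at day 120, beside 0.27 and 0.30 over all tested genes. Ltc4s, which makes leukotriene C4, was higher by 3.89 (adjusted p = 0.00175) at day 60 and by 2.46 (0.0218) at day 120 in limma. Mitf, a transcription factor of mast cells and melanocytes, was higher by 1.03 (adjusted p = 0.00622) and by 0.74 (0.0382). Enpp3, a surface ectoenzyme of mast cells and basophils, was higher by 0.97 (adjusted p = 0.0120) at day 60. The adenosine receptor Adora3 was higher by 0.63 (adjusted p = 0.0287) at day 60 and by 0.60 (0.0441) at day 120. Srgn, Gata2, Ndst2 and Hpgds passed the filter but were not called at either time. Gata2 differed by 0.51 (adjusted p = 0.160) and 0.35 (0.351), and Hpgds by -0.16 (0.733) and -0.87 (0.0766). Rab27b, which failed the filter, stood at 0.532 to 2.09 FPKM in isolated islets. It stood at 0.331 to 0.722 FPKM in day 60 grafts and at 0.147 to 0.510 FPKM in day 120 grafts. Both mucosal chymases, Mcpt1 and Mcpt2, were listed at 0 in all 12 libraries. Tpsab1, the tryptase gene known to be defective in C57BL/6 mice, reached at most 1.07 FPKM and was listed above 0 in all 8 grafts and in 1 isolated islet library. The connective tissue mast cell receptor Mrgprb2 was at 0 in isolated islets, between 0.201 and 0.710 FPKM in day 60 grafts and between 0.106 and 0.391 FPKM in day 120 grafts. The IL-33 receptor Il1rl1 stood at 0.031 to 0.060 FPKM in isolated islets, at 0.284 to 1.56 FPKM in day 60 grafts and at 0.212 to 0.418 FPKM in day 120 grafts. Neither passed the filter.

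Genes of FcεRI signalling and of mast cell growth were mostly higher at day 60. Of 12 tested FcεRI signalling genes, 10 were higher and 1 lower at day 60, against 31.3% and 12.3% of all tested genes. At day 120, 4 were higher and 1 lower, against 24.3% and 7.03%, a share of higher genes not far from that of all genes. The list's median difference was 1.19 at day 60 and 0.68 at day 120, with the same medians of all tested genes beside it. Fcer1g, the gamma chain that FcεRI shares with the IgG receptors of macrophages and other cells, was higher by 3.09 (adjusted p = 0.000796) at day 60 and by 2.08 (0.00968) at day 120. The adaptor Lcp2 was higher by 1.93 (adjusted p = 0.00162) and by 1.09 (0.0332). The kinase Syk was higher by 1.85 (adjusted p = 0.00187) at day 60. The adaptor Gab2 was lower, at -1.18 (adjusted p = 0.0269) and -1.36 (0.0217). Of 10 tested genes of growth and homing signals, 8 were higher at day 60 and 5 at day 120, with none lower, against 31.3% and 24.3% of all tested genes, and median differences were 1.40 and 0.94. The chemokine Cxcl12 was higher by 2.99 (adjusted p = 0.000254) and by 1.93 (0.00501), and Il3ra, the IL-3 receptor alpha chain, by 1.24 (0.000373) and 1.07 (0.00184). Itgb7, an integrin chain that mast cell progenitors use for homing, was higher by 2.21 (adjusted p = 0.00223) and by 1.23 (0.0436). Il33 was higher by 1.99 (adjusted p = 0.00537) and by 1.31 (0.0469). Kitl, the stem cell factor that binds Kit, was at 8.84, 3.60, 2.77 and 2.13 FPKM in day 60 grafts and at 3.14, 2.25, 1.83 and 2.50 FPKM in day 120 grafts, against 2.55, 2.69, 2.05 and 2.00 FPKM in isolated islets. Its groups overlapped and it was not called. Of the 7 histamine genes, only the breakdown enzyme Hnmt passed the filter, and it was higher by 2.17 (adjusted p = 0.00120) and by 1.56 (0.0106). Of 4 tested genes of prostaglandin and leukotriene synthesis, 3 were higher at day 60 and 2 at day 120, against 31.3% and 24.3% of all tested genes. Ltc4s was among them, and Alox5ap, which hands arachidonic acid to 5-lipoxygenase, was higher by 3.00 (adjusted p = 0.00127) and by 2.40 (0.00725). Several genes of these lists, among them Syk, Lcp2, Itgb7, Il33 and Ltc4s, were under 1 FPKM in every isolated islet library. They passed the filter only through the grafts. Of all tested genes low in this way, 80.6% were called higher at day 60 and 48.4% at day 120. The shares of all tested genes are therefore a low yardstick for these counts. No gene of these lists was called between day 120 and day 60.

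Markers of other cell types moved with the mast cell genes, and their part in the results was not tested. The summed FPKM of the 8 mast cell genes was at most 2.40 in isolated islets, 14.0 to 174 in day 60 grafts and 20.9 to 41.5 in day 120 grafts. In isolated islets nearly all of that sum was Hdc and Kit. The sum of 12 macrophage genes was 62.5 to 105 in isolated islets, 473 to 4612 in day 60 grafts and 336 to 567 in day 120 grafts. That of 8 fibroblast genes was 19.5 to 26.9, 793 to 5741 and 330 to 814 in the same order, and that of 8 adipocyte genes 46.5 to 58.1, 291 to 10371 and 243 to 989. That of 4 leukocyte genes was 10.0 to 18.3, 82.9 to 496 and 59.0 to 136. At day 60, 11 of 12 macrophage, 8 of 8 fibroblast, 7 of 8 adipocyte and 4 of 4 leukocyte genes were called higher, against 31.3% of all tested genes. At day 120 these counts were 8, 8, 6 and 3, against 24.3%. Some of these genes, Mrc1 and Plin1 among them, were under 1 FPKM in every isolated islet library. Of all tested genes low in this way, 80.6% were called higher at day 60 and 48.4% at day 120. Day 60 replicate 1 was highest for all these sums and for 7 of the 8 mast cell genes, Hdc being the exception. The proportion of Mcpt4 to marker genes of these cells varied as well. Mcpt4 over the leukocyte gene Ptprc ranged 8.68-fold over the grafts, over the macrophage gene Lyz2 4.32-fold, over the fibroblast gene Dcn 4.12-fold and over the adipocyte gene Adipoq 9.56-fold.

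**Figure D4:**
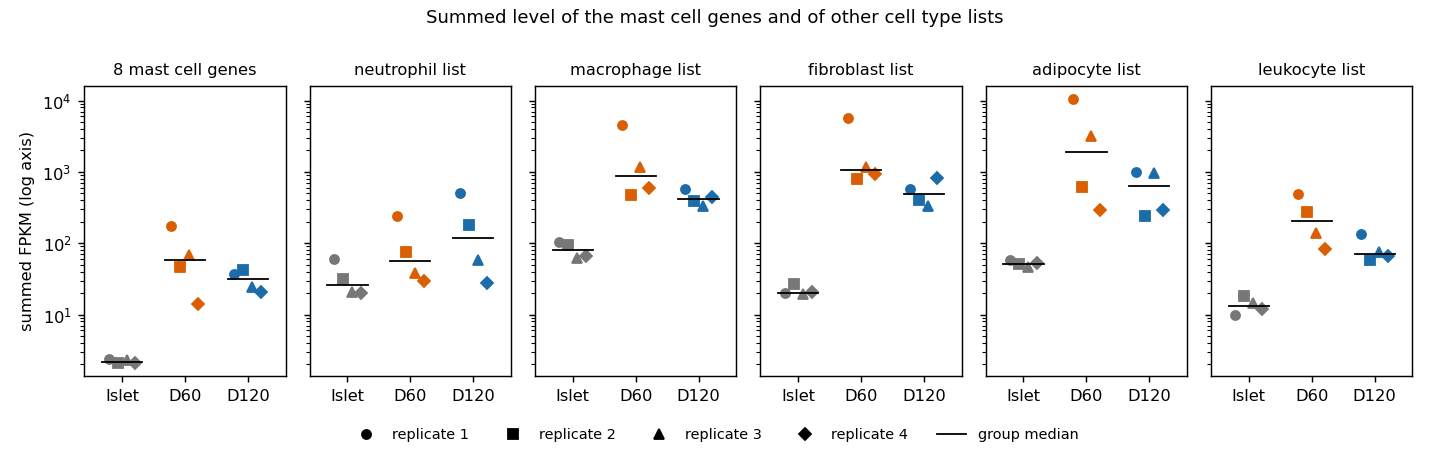
Summed FPKM of the 8 mast cell genes and of neutrophil, macrophage, fibroblast, adipocyte and leukocyte gene lists in each library, on a log axis. Day 60 replicate 1 is the highest library for each sum except that of the neutrophil list, where day 120 replicate 1 is highest.

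The cell types that share genes with mast cells were examined the same way. Of 15 neutrophil genes in the table, 8 passed the filter, of which 5 were higher and 1, Lcn2, was lower at each time. Of all tested genes, 31.3% were higher and 12.3% lower at day 60, and 24.3% were higher and 7.03% lower at day 120. Genes called higher such as S100a8, S100a9 and Retnlg were under 1 FPKM in every isolated islet library. Of all tested genes low in this way, 80.6% were called higher at day 60 and 48.4% at day 120. The neutrophil sum was 20.1 to 60.4 FPKM in isolated islets, 29.4 to 239 in day 60 grafts and 27.7 to 505 in day 120 grafts. The granule genes Camp and Mpo, which developing neutrophils express, were listed at 0 in all 12 libraries. The basophil protease Mcpt8 was at 0 in isolated islets and reached at most 0.574 FPKM in grafts, and none of 3 basophil genes passed the filter. The eosinophil granule gene Prg2 reached at most 0.799 FPKM, and of 7 eosinophil genes only Ear2 passed the filter and was called at day 60. Of 3 tested melanocyte genes, 2, Mlana and Dct, were higher at each time, and Tyrp1 was listed at 0 throughout. Mlana was at 0 in isolated islets, at 22.2, 2.63, 2.90 and 2.86 FPKM in day 60 grafts and at 1.46, 2.53, 1.92 and 2.13 FPKM in day 120 grafts. In limma it was higher by 2.58 (adjusted p = 0.00179) at day 60 and by 1.58 (0.0259) at day 120. The melanocyte gene Dct stood at 0.233 to 1.23 FPKM in isolated islets, at 1.66 to 2.29 FPKM in day 60 grafts and at 1.45 to 1.78 FPKM in day 120 grafts. Of the 2 genes of interstitial cells of Cajal, none was called at day 60 and Etv1 was higher at day 120. Ano1 was not called at either time. The islet hormone gene Iapp stood at 16932 to 26174 FPKM in isolated islets, at 29125 to 48065 FPKM in day 60 grafts and at 34717 to 45612 FPKM in day 120 grafts. Other hormone genes went the other way. In limma Ppy differed by -0.85 at day 60 and by -1.08 at day 120, where it was called lower (adjusted p = 0.0388). Gcg differed by -0.93 and -0.84 and Sst by -0.85 and -0.62, and neither was called. Sums of islet hormone genes are not compared, because 10 of 12 libraries list Ins2 at 0 and day 60 replicate 4 lists Ins1 at 0, which may be failed estimates. Acinar enzyme genes summed to 10265 to 118043 FPKM in isolated islets, to at most 87.3 in day 60 grafts and to at most 20.1 in day 120 grafts.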

How the data were processed

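Total RNA (10 ng per library) was converted to cDNA with a SMARTer Ultra Low Input v3 kit and sequenced on a HiSeq, per the labels' protocols. The deposited table holds FPKM made by the authors with TopHat2, Cufflinks 2.1.1 and build mm9, per the submitters' processing notes. The annotation, options and any scaling between libraries are not given in the sources used here. All 12 value columns were matched to samples by name, and 0 columns were left unused. FPKM summed to between 396769 and 786366 per library. Read counts and total depth are unknown. The relative worth of 1 read, found from steps in low rows, was 0.776 to 1.21 (isolated islet replicate 1 set to 1), and 5.27% to 8.59% of the compared rows lay at the step. Because such a step may be wrong by a factor of small whole numbers, counts were not rebuilt or tested. A value of 0 may be a failed estimate: 64 tested genes held both 0 and over 10 FPKM within 1 group with nothing between. For this reason no fold of FPKM is given against a group listed at 0. The limma differences from such a group take the 0 values as listed, on log2(FPKM + 1).

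Genes with at least 1 FPKM in at least 4 of 12 libraries (13433) were tested as log2(FPKM + 1) with limma 3.58.1 (R 4.3.3, statmod 1.5.0), fitting the 3 group means together, with trended, robust empirical Bayes variances. P-values were two-sided and adjusted by Benjamini-Hochberg over the 13433 genes, with a threshold of 0.05. Every adjusted p of a gene comes from this fit unless an exact permutation test or another setting is named. Fits with another filter were adjusted over the genes that they tested. Lists are described by counts and medians only. The 8 genes and the 18 lists were chosen with earlier results of these data known. Named genes were the 8, S100a8, S100a9, the 3 nearest profiles of each, up to 4 genes per list with the smallest p, and 1 defining gene per other cell type. Mcpt1, Mcpt2, Tpsab1, Mrgprb2, Il1rl1, Gata2, Ndst2, Rab27b, Il33, Kitl, Slc22a3, Camp, Mpo, and Tyrp1 were named outside that rule, after their values were seen. Of the list symbols, 3 were matched through RefSeq synonyms and 1 was not matched. Same-numbered grafts were alike, though the labels state no pairing. Deviations of same-numbered day 120 and day 60 libraries correlated at 0.180 to 0.442 over all tested genes, against -0.0784 to 0.0199 with isolated islets. What same-numbered grafts share is not stated. Other scalings, filters and pseudocounts, a replicate block, array weights, fits on 2 groups and leaving out libraries were tried.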

Additional observations from a re-analysis of the deposited data

Results flagged for a closer look

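Values far from the others of their group were looked for in 26 groups of 4 libraries, comparing the gap to the nearest library with the whole range. Chance alone flags about 1 in 20 groups, and a single value above 0 among zeros is always flagged. Of the mast cell genes, Cma1 was listed at 0.093 FPKM in isolated islet replicate 1, Tpsb2 at 0.086 FPKM in isolated islet replicate 2 and Cpa3 at 0.117 FPKM in isolated islet replicate 4, each with 0 in the other 3 isolated islet libraries. Ms4a2 was listed at 0.202 FPKM in day 120 replicate 2 and at 0 in the other day 120 grafts. Of the neutrophil genes, S100a9 stood at 0.287 FPKM in isolated islet replicate 1 and at 0 in the others, and S100a8 stood at 106 FPKM in day 60 replicate 1, with the next day 60 graft at 23.2 FPKM.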

How the results depend on the processing

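Of 540 gene-level alternatives, 502 kept direction and side of the threshold, 6 lost the call, 20 gained one and 12 changed sign; for those that did not keep it the cause was not tested. At day 60 against isolated islets the 4 proteases and Fcer1a were called in every alternative that gave them a value. The stricter filter gave Fcer1a, Hdc and Kit no value. The number of genes called was 3777 with endocrine scaling and 10359 with array weights, and 4152 to 6950 leaving out 1 library. At day 120 against isolated islets it was 335, 8943 and 7571 (endocrine scaling, array weights, without both isolated islet replicate 1 and day 60 replicate 1), and 1986 to 5609 leaving out 1 library. Mast cell genes called were 1 with endocrine scaling and 7 with array weights, and 4 to 6 leaving out 1 library. At day 120 against day 60 the number of genes was 4 with no filter, 1 with the stricter filter, 2874 with array weights and 2 to 21 leaving out 1 library, and mast cell genes called were 6 with array weights. The array weights did not converge and ran from 0.125 to 15.5. Signs changed for values near 0: at day 60 against isolated islets, Hdc was -0.17 with quantile normalization and -0.021 with array weights, and Kit was 0.30 with endocrine scaling and 0.00094 to 0.039 without isolated islet replicates 1 or 3 or day 60 replicates 3 or 4, with values from -0.058 upward over all libraries left out. Kit was lower with quantile normalization, at -0.50 (adjusted p = 0.0293) at day 60 and -0.75 (0.00889) at day 120. At day 120 against day 60, Tpsb2 was 0.012 without day 60 replicate 1, alone or with isolated islet replicate 1, and -1.16 without day 60 replicate 4. S100a8 was -0.16 with endocrine scaling and ran down to -0.46 leaving out 1 library (day 120 replicate 1), with -0.039 without day 60 replicate 4 and 1.37 without day 120 replicate 4. At day 120 against isolated islets, Fcer1a passed with a pseudocount of 0.1 (2.71, adjusted p = 0.0147), and S100a9 was lost with endocrine scaling (4.90, adjusted p = 0.0617). With a replicate block on all 12 libraries, Hdc at day 120 passed (0.70, adjusted p = 0.0378), though the numbers do not pair grafts with isolated islets. A block on the grafts alone, added after seeing the data, called 3 genes and 0 mast cell genes between day 120 and day 60, and the block changed no other call among the mast cell and neutrophil genes.

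The median difference of all tested genes at day 60 was 0.27 as deposited, 0.13 with upper-quartile scaling, -0.060 with the sum outside hormone and acinar genes, 0.63 with endocrine scaling and -0.032 with quantile normalization. Higher and lower calls were 4211 and 1654 as deposited, 3462 and 2251, 2366 and 2856, 3415 and 362, and 2516 and 2909 in that order. At day 120 they were 3268 and 944 as deposited, 2347 and 1332, 1855 and 1268, 132 and 203, and 1623 and 1735. No leave-one-out test is given for the difference from neutrophil genes, because 3 against 4 libraries has 35 assignments and a smallest exact p of 0.0571. Unknown depth limits Fcer1a and Ms4a2 most, since their low graft values rest on a few read steps.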

Other observations

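Lat and Grap2, adaptors of FcεRI signalling that T cells also use, were highest in day 60 replicate 2. Lat was at 18.7 FPKM there, between 0.642 and 1.97 FPKM in the other day 60 grafts and between 0.316 and 0.864 FPKM in day 120 grafts, against 0.074 to 0.283 FPKM in isolated islets. Grap2 was at 9.22 FPKM in that library and at 0.423 to 1.86 FPKM in the other 7 grafts. Lcp2, another such adaptor, was at 3.18 FPKM there and highest in day 60 replicate 1, at 9.29 FPKM. Lat and Grap2 were named after their values were seen. Slc22a3, a transporter that carries histamine, was at 11.1, 1.23, 3.79 and 0.284 FPKM in day 60 grafts and at 0.880, 0.345, 0.990 and 0.415 FPKM in day 120 grafts, against 0.046 to 0.089 FPKM in isolated islets. From high to low, its day 60 libraries had the same order as those of Mcpt4, an order that Adipoq, Lyz2 and Dcn also had.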
